A study of Arabidopsis thaliana with 48 samples.

Results

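GTR1 (AT3G47960, also NPF2.10), GTR2 (AT5G62680, NPF2.11) and GTR3 (AT1G18880, NPF2.9) are the 3 glucosinolate transporter genes of Arabidopsis thaliana described here. They were taken by locus identifier from a table of estimated read counts, as 3 of its 33602 targets, and all 3 passed the filter on low counts in every fit. RNA was sequenced from shoots (leaf samples in the growth notes) and roots of seedlings aged 18 days, of the wild type Col-0, of a T-DNA insertion line in EIL1 labelled eil1 (SALK_042113), of one in EIL3 labelled eil3 (SALK_089129) and of their double mutant labelled eil3 eil1, so that each mutant gene was represented by 1 insertion line. The full supply (+S) was 0.75 mM MgSO4. The low supply (-S) was 0.015 mM MgSO4 with 0.75 mM MgCl2, so low sulfate and added chloride cannot be told apart. The 4 genotypes, 2 organs and 2 sulfate levels make 16 groups of 3 libraries, called biological replicates in the growth notes, with 26615731 to 38269932 counts per library.

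Glucosinolates are sulfur-rich defence compounds of the cabbage order, made largely in cells near the vascular tissue and carried between organs in xylem and phloem. GTR1 and GTR2 are plasma membrane proton symporters of the nitrate and peptide transporter family (NPF) that import glucosinolates into cells, known for phloem loading towards the seeds and for holding long-chain aliphatic glucosinolates in roots. GTR3 is known for a preference for indolic glucosinolates and, under the name NRT1.9, as a nitrate transporter of the root phloem. EIL3, also called SLIM1, is a transcription factor of the sulfur limitation response, and EIL1 is a related factor of ethylene signalling. The comparisons ask how the transcripts of the 3 transporters respond to low sulfate in each organ, and in which mutant lines that response differs.

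Read levels are CPM, counts scaled to library size with TMM factors, with the SD of 3 libraries where a mean is given. A log2 fold change is followed by its SE from edgeR's quasi-likelihood test. The words rise, fall and differ are kept for p-values below 0.05 after Benjamini-Hochberg adjustment across every locus of the fit. The targeted transcripts did not follow every label. EIL1 stood at 13.2 to 21.7 CPM in the 6 eil3 eil1-labelled root libraries, against 50.4 to 60.4 in Col-0 and 36.4 to 52.95 in the eil1-labelled roots, which overlapped Col-0 over both sulfate levels. Against Col-0 EIL1 was lower in the eil1-labelled roots at -S (log2 -0.38 ± 0.098, adjusted p = 0.0406, edgeR) and had a difference of 0.0010 ± 0.098 at +S (adjusted p = 0.998), while it was lower in the eil3 eil1-labelled roots at both levels (-1.70 ± 0.10 and -1.52 ± 0.10, adjusted p = 1.08e-09 and 5.4e-10). EIL3 stood at 11.9 to 17.04 CPM in the eil3-labelled roots and 21.6 to 24.3 in Col-0 roots, while the eil3 eil1-labelled roots (19.9 to 23.6 CPM) overlapped Col-0. EIL3 was lower than in Col-0 in the eil3-labelled roots (-0.57 ± 0.10 at +S and -0.59 ± 0.10 at -S, adjusted p = 0.0039 and 0.00069) and did not pass in the eil3 eil1-labelled roots (adjusted p = 0.725 and 0.736). In shoots EIL1 stood at 26.2 to 48.6 CPM in the eil3 eil1-labelled, 79.6 to 98.7 in the eil1-labelled and 98.96 to 108 in the Col-0 libraries, and EIL3 at 27.97 to 33.2 in the eil3 eil1-labelled, 14.6 to 20.8 in the eil3-labelled and 16.4 to 23.3 in the Col-0 libraries. There EIL1 did not pass in the eil1-labelled line (adjusted p = 0.0796 and 0.277 at +S and -S) nor EIL3 in the eil3-labelled line (0.94 and 0.226), and in the eil3 eil1-labelled line EIL1 was lower and EIL3 higher at both levels (adjusted p up to 0.00131). A transcript can persist in an insertion line, and whether the proteins were lost was not tested, so the mutants are named by their labels. The 7 green tissue markers summed to 243 to 588 CPM in 23 root libraries and to 1413 in the first eil1-labelled +S root library. Without that library GTR1 still rose in eil1-labelled roots (log2 0.73, adjusted p = 4.78e-06 by edgeR) and GTR2 fell (log2 -0.39, adjusted p = 0.0222). Library numbers are those of the deposited columns.

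The 3 genes lie on different chromosomes of the RefSeq assembly TAIR10.1, each with 4 exons: GTR1 at chr3:17697942-17700923 on the minus strand, GTR2 at chr5:25165137-25168060 on the minus strand and GTR3 at chr1:6520721-6523368 on the plus strand. GTR1 and GTR2 are the closest pair, with 77.9% identical bases over the aligned coding sequence, against 66.3% for GTR1 and GTR3 and 67.1% for GTR2 and GTR3. The coding sequences are shown around the ExxER/K motif of NPF proteins, which is known for its part in proton coupling, because all 3 genes encode it. Capitals mark the 15 bases that encode the motif, at residues 75 to 79 of GTR1, 57 to 61 of GTR2 and 33 to 37 of GTR3, and each line holds 87 bases of the coding strand, 5′ to 3′.
GTR1: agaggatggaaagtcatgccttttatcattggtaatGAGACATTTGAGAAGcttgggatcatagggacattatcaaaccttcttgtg
GTR2: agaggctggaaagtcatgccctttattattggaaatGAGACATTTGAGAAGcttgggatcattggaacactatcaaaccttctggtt
GTR3: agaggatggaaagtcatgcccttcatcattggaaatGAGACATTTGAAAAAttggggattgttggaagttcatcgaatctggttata
In these windows GTR1 and GTR2 had 89.7% identical bases, and GTR3 had 77.0% with either. Of all words of 31 bases, GTR1 and GTR2 shared 8 and GTR3 shared 0 with either, so few reads could fit more than 1 of the 3 genes. The counted targets were 2892, 2807 and 2621 bases long for GTR1, GTR2 and GTR3 and held introns, since the annotated exons sum to 2247, 2382 and 1970 bases. GTR3 overlaps the calcium-dependent protein kinase gene AT1G18890 on the other strand by 605 bases and the miRNA gene AT1G18879 on its own strand by 184, GTR2 overlaps the proton pump gene AT5G62670 by 73, and GTR1 overlaps the proton pump gene AT3G47950 by 58 and a non-coding RNA gene by 324. The library kit keeps strand information, but the strand setting of the counting is not given in the sources used here, so reads of the overlaps are uncertain.

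Because the mutated genes encode transcription factors and the 3 genes differed in their response, the 250 bases before each annotated start were searched on both strands for 3 motifs: ATGTA, the core bound by EIN3 and EIL proteins, GAGAC, the core of the sulfur-responsive element SURE, and CACGTG, the G-box. Capitals mark the matches in the windows, printed on the gene's strand, 5′ to 3′ (chr3:17700924-17701173, chr5:25168061-25168310 and chr1:6520471-6520720, TAIR10.1).
GTR1: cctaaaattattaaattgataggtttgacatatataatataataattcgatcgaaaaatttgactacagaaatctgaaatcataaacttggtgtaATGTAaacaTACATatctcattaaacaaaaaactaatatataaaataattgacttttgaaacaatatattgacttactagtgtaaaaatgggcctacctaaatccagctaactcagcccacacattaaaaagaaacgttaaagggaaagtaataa
GTR2: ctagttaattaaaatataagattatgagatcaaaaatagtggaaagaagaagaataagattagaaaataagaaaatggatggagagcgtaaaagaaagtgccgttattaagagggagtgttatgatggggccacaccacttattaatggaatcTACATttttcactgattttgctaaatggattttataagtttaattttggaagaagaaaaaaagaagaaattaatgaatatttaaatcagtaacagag
GTR3: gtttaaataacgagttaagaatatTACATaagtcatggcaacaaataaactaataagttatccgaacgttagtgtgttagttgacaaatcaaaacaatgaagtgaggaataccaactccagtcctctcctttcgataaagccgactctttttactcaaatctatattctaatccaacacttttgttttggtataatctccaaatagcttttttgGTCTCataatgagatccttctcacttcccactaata
ATGTA was found at 155 and, as its reverse complement TACAT, at 146 bases before the start of GTR1, at 97 for GTR2 and at 226 for GTR3, the last pair both as TACAT. The GAGAC core was found once, as GTCTC, 36 bases before GTR3, and no G-box was in the 3 windows. No match overlapped another. Such matches are common: of 27443 promoter windows of this length, 52% held ATGTA, 25.8% GAGAC and 6.5% the G-box. A match shows letters, not binding.

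Per length, the order of the 3 genes differed between the organs. In TPM, counts scaled for effective length and depth, GTR3 was lowest in every shoot library, at 2.59 to 8.53, while GTR1 stood at 9.93 to 29.3 and GTR2 at 22.3 to 53.9. In roots GTR3 was at 60.2 to 87.0 TPM, GTR2 at 38.4 to 75.3 and GTR1 at 20.6 to 65.2. The order GTR2, GTR1, GTR3 held in 23 of 24 shoot libraries, and the order GTR3, GTR2, GTR1 in 20 of 24 root libraries. In TPM, the 3 Col-0 root libraries at -S, and no other roots, had GTR1 above GTR2. Per length of annotated exons, the second eil1-labelled -S root library had it too. In Col-0 roots the TPM ratio of GTR1 to GTR2 went from 0.444 ± 0.0300 at +S to 1.48 ± 0.0697 at -S. In eil1-labelled roots it went from 0.417 ± 0.0254 to 0.899 ± 0.0295, in eil3-labelled roots from 0.370 ± 0.0111 to 0.490 ± 0.0323, and in eil3 eil1-labelled roots from 0.449 ± 0.0452 to 0.347 ± 0.0324. The ratio was thus above its +S range in every -S library of the first 3 genotypes and below it in the -S libraries of the double mutant. Shoots showed the same split, from 0.636 ± 0.0619 to 0.897 ± 0.0230 in Col-0 and from 0.620 ± 0.0186 to 0.414 ± 0.0802 in the eil3 eil1-labelled plants.

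**Figure D1:**
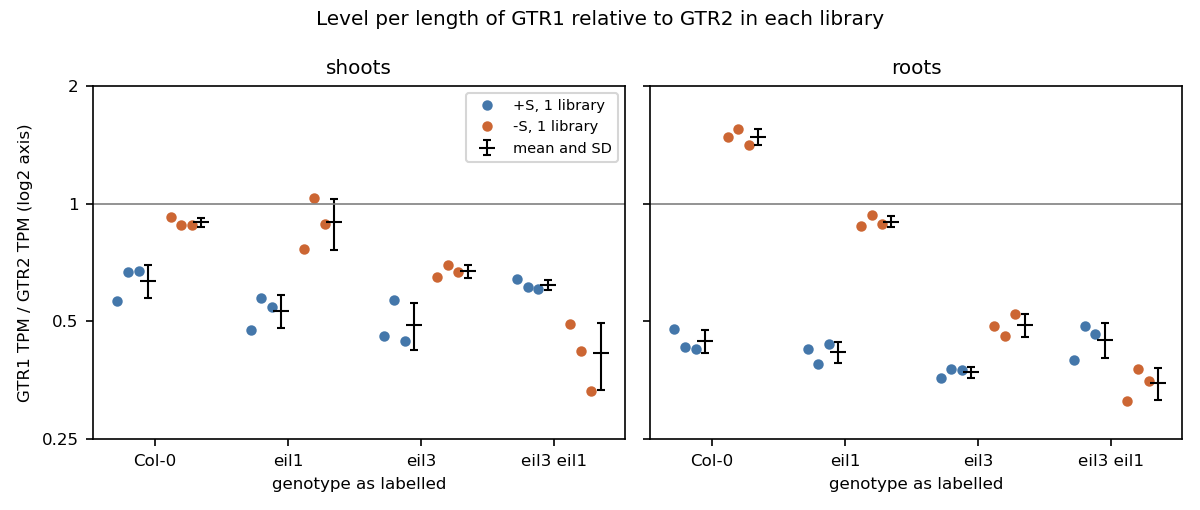
TPM of GTR1 divided by TPM of GTR2 in each library (points, log2 axis), by genotype as labelled and sulfate level, with mean and SD of 3 libraries. At -S the root ratio was above 1 in the 3 Col-0 libraries and at 0.313 to 0.377 in the 3 eil3 eil1-labelled libraries.

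In Col-0 roots low sulfate moved GTR1 and GTR2 in opposite directions. GTR1, counted at 45.95, 41.6 and 41.8 CPM at +S and 99.3, 101 and 88.7 at -S, rose 2.23-fold (log2 1.16 ± 0.069, adjusted p = 5e-11, edgeR). GTR2, counted at 92.9, 93.6 and 95.5 CPM at +S and 64.9, 62.6 and 60.6 at -S, fell (log2 -0.58 ± 0.075, adjusted p = 1.18e-05, edgeR). For both genes the 3 libraries of one sulfate level lay wholly apart from those of the other. GTR3 went from 100.4 ± 8.01 to 118 ± 7.76 CPM, with every -S library above every +S library, and did not pass the test (log2 0.24 ± 0.091, adjusted p = 0.115). Of all loci tested in Col-0 roots, 9.03% were called.

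In eil1-labelled roots both responses kept their sign and were smaller in estimate. GTR1 was at 43.2, 42.2 and 44.6 CPM at +S and 74.9, 70.2 and 71.8 at -S (log2 0.74 ± 0.069, adjusted p = 2.14e-07, edgeR), and GTR2 at 98.7, 105 and 98.5 at +S and 82.5, 72.8 and 78.4 at -S (log2 -0.37 ± 0.075, adjusted p = 0.00639). The groups did not overlap for either gene, and 1.92% of loci were called. Leaving out the second -S library ended the call of GTR2 (adjusted p = 0.0657).

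In eil3-labelled roots no transporter passed the test, where 1.06% of loci did. GTR1 was at 33.7, 34.5 and 40.3 CPM at +S and 42.6, 40.5 and 47.5 at -S, which did not overlap (log2 0.27 ± 0.070, adjusted p = 0.0727, edgeR). It passed with DESeq2 (adjusted p = 0.025) and, with edgeR, without the third +S library (adjusted p = 0.0127) or the second -S library (adjusted p = 0.0444). GTR2 was at 91.3, 88.5 and 104 CPM at +S and 84.6, 85.4 and 87.9 at -S (log2 -0.14 ± 0.074, adjusted p = 0.582). These changes had the signs seen in Col-0.

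In eil3 eil1-labelled roots the estimates of GTR1 and GTR2 had the opposite signs. GTR1 was at 39.9, 42.9 and 40.8 CPM at +S and 37.1, 35.7 and 35.5 at -S, with every -S library below every +S library (log2 -0.19 ± 0.070, adjusted p = 0.164, edgeR). GTR2 was at 96.9, 85.5 and 85.3 at +S and 115, 91.7 and 97.5 at -S, and these groups overlapped (log2 0.18 ± 0.074, adjusted p = 0.228). Neither passed the test. GTR3, the phloem nitrate transporter, rose there from 97.3, 88.7 and 97.7 to 120.1, 117 and 122 CPM (log2 0.34 ± 0.091, adjusted p = 0.0375), in a comparison that called 3.89% of loci. That call was lost when any 1 of the 6 libraries was left out, with adjusted p up to 0.184, and with total-count scaling (adjusted p = 0.0609). In roots labelled eil1 and roots labelled eil3, GTR3 had log2 values of 0.29 ± 0.091 (adjusted p = 0.146) and 0.12 ± 0.091 (adjusted p = 0.728), so its estimate was positive in all 4 genotypes.

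**Figure D2:**
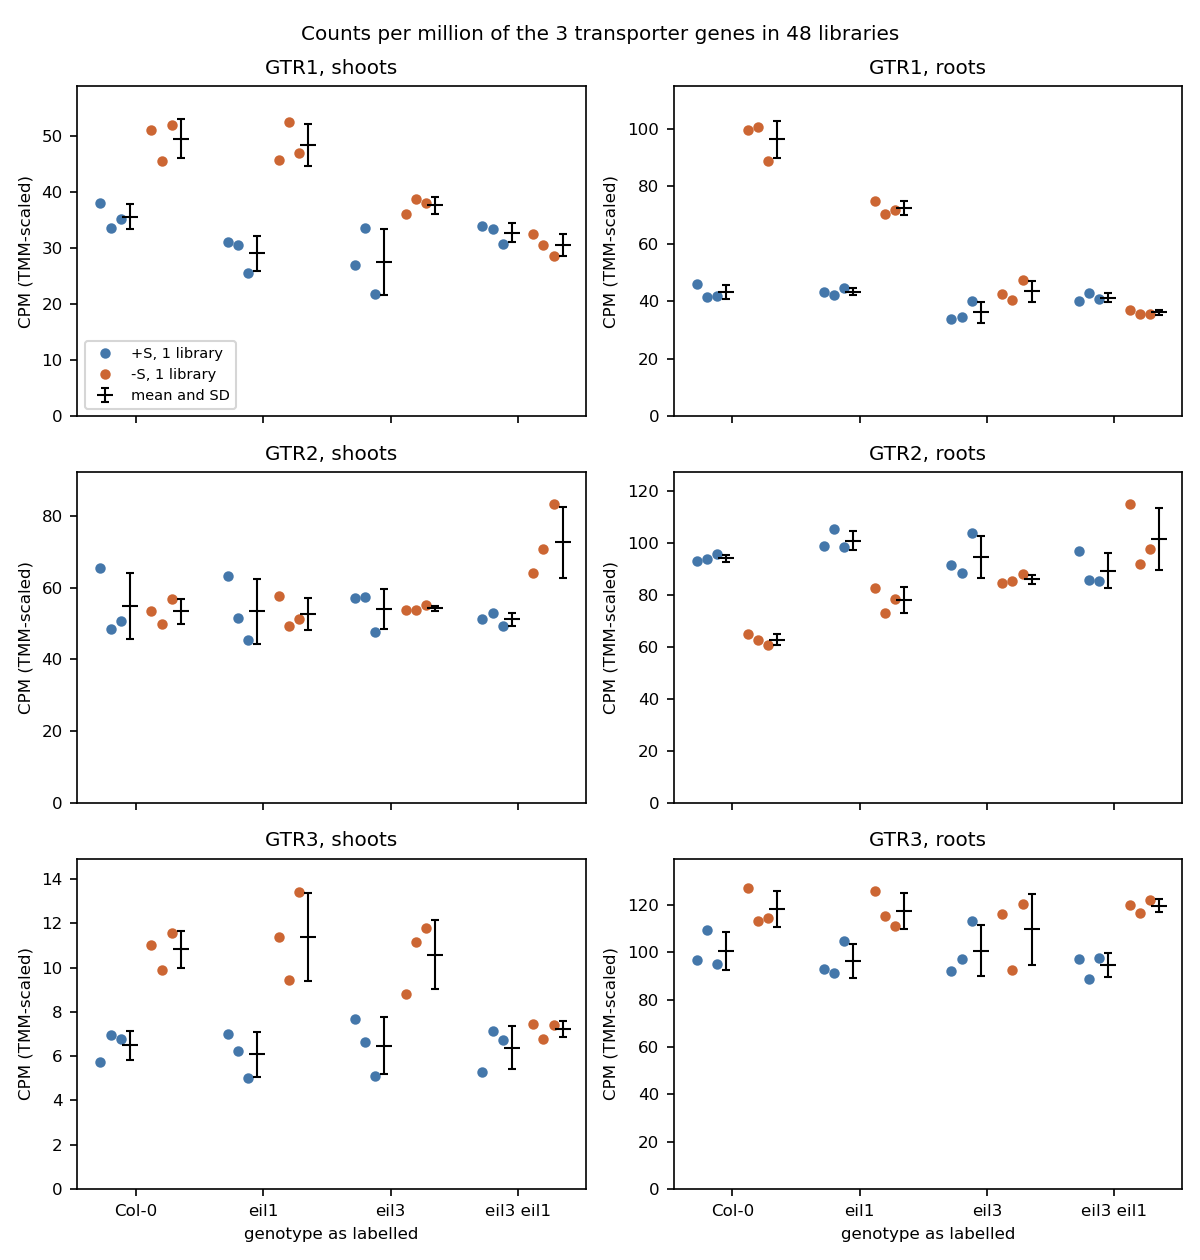
TMM-scaled CPM of GTR1, GTR2 and GTR3 in each library (points) by genotype as labelled, organ and sulfate level, with mean and SD of 3 libraries, and axes from 0. Root GTR1 at -S steps down from Col-0 (96.2 ± 6.56 CPM) to the eil3 eil1-labelled plants (36.1 ± 0.889), while root GTR2 at -S is lowest in Col-0 (62.7 ± 2.144).

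In Col-0 shoots GTR1 and GTR3 rose and GTR2 did not pass the test. GTR1 was at 38.1, 33.6 and 35.2 CPM at +S and 51.01, 45.6 and 52.01 at -S (log2 0.47 ± 0.11, adjusted p = 0.00207, edgeR). GTR3 was at 5.75, 6.96 and 6.77 at +S and 11.03, 9.89 and 11.5 at -S (log2 0.74 ± 0.16, adjusted p = 0.00127). Neither pair of groups overlapped, and GTR2 stood at 54.8 ± 9.17 and 53.4 ± 3.47 CPM (log2 -0.038 ± 0.12, adjusted p = 0.846). In this comparison 34.9% of all loci were called, so a call is common there.

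The single mutants had the same 2 calls in shoots. In eil1-labelled shoots GTR1 was at 31.1, 30.5 and 25.6 CPM at +S and 45.7, 52.6 and 46.98 at -S (log2 0.74 ± 0.11, adjusted p = 6.12e-05, edgeR), and GTR3 at 7.01, 6.24 and 5.01 at +S and 11.4, 9.42 and 13.4 at -S (log2 0.90 ± 0.16, adjusted p = 0.000341). In eil3-labelled shoots GTR1 was at 27.02, 33.6 and 21.8 at +S and 36.02, 38.9 and 38.1 at -S (log2 0.45 ± 0.11, adjusted p = 0.00347), and GTR3 at 7.68, 6.65 and 5.10 at +S and 8.82, 11.1 and 11.8 at -S (log2 0.70 ± 0.16, adjusted p = 0.00209). None of these 4 pairs of groups overlapped. A fit of the compared groups alone ended the call of GTR1 in eil3-labelled shoots (adjusted p = 0.0568). GTR2 had log2 values of -0.016 ± 0.12 (adjusted p = 0.941) and 0.0049 ± 0.12 (adjusted p = 0.98) in these lines, where 27.3% and 34.6% of loci were called.

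In eil3 eil1-labelled shoots the pattern was another, and GTR2 was the only transporter that rose. GTR2 was at 51.4, 52.8 and 49.2 CPM at +S and 63.97, 70.6 and 83.4 at -S, which did not overlap (log2 0.51 ± 0.12, adjusted p = 0.00108, edgeR). GTR1 was at 34.02, 33.5 and 30.8 at +S and 32.5, 30.6 and 28.6 at -S (log2 -0.10 ± 0.11, adjusted p = 0.446), and GTR3 at 5.30, 7.12 and 6.72 at +S and 7.47, 6.79 and 7.42 at -S (log2 0.18 ± 0.16, adjusted p = 0.347), both overlapping. Here 60.8% of loci were called. Across the 8 responses, GTR1 was thus called in 5, GTR2 in 3 and GTR3 in 4.

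**Figure D3:**
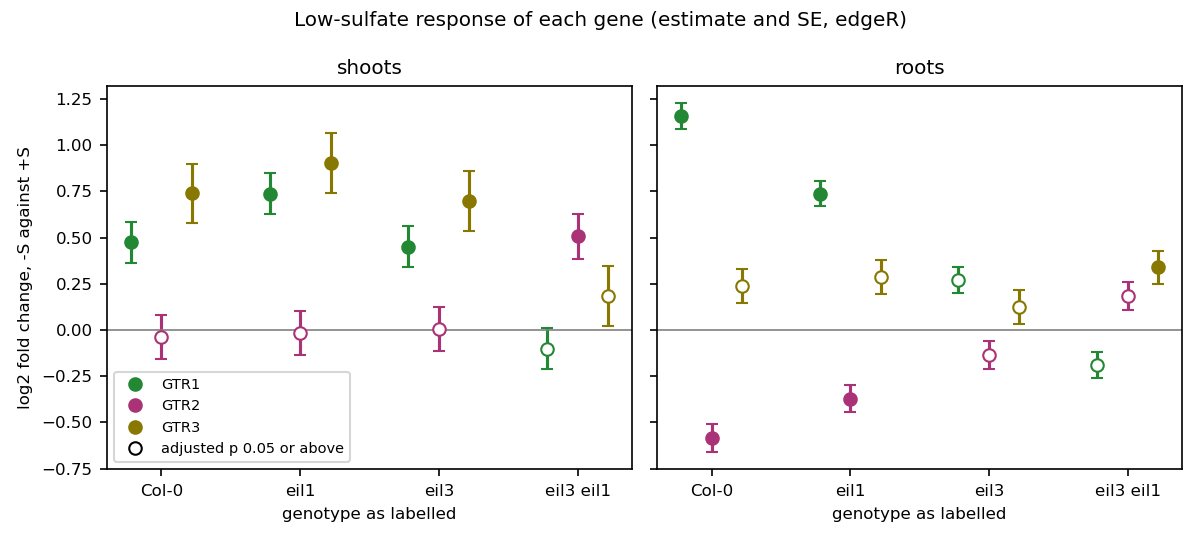
Log2 fold change from +S to -S of the 3 genes in each genotype as labelled, with SE from edgeR, where filled points passed the adjusted threshold of 0.05. Root GTR1 runs from 1.16 in Col-0 to -0.19 in the eil3 eil1-labelled plants, and root GTR2 from -0.58 to 0.18.

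Green tissue markers moved with the treatment in the shoots of every genotype, and some root markers were called in the shoots of each mutant line. The 7 green tissue markers, photosynthesis genes, summed to 49221 ± 3541 CPM in Col-0 shoots at +S and 30414 ± 2373 at -S, and to 44479.9 ± 2621 and 16629 ± 646 in the eil3 eil1-labelled shoots. All 7 fell at -S in Col-0, eil3-labelled and eil3 eil1-labelled shoots, where 34.9%, 34.6% and 60.8% of all loci were called. In eil1-labelled shoots 5 of 7 fell, where 27.3% of all loci were called. Against Col-0 at -S 5 of 7 were lower in the eil3-labelled shoots (17.5% of all loci called). In the eil3 eil1-labelled shoots 7 of 7 were lower than in Col-0 at -S (53.6% of all loci called). Of the 6 root markers tested in shoots, 0 were called in Col-0 (median log2 0.21), 1 fell in the eil1-labelled plants, and 1 rose and 1 fell in the eil3-labelled plants. In the eil3 eil1-labelled plants 4 of the 6 fell (median log2 -1.41), near the 60.8% of all loci called. Against Col-0 at -S 4 were lower there and 1 higher (median -1.58, 53.6% of all loci called), the comparison in which GTR3 was lower. The sum of all 7 root markers was 497 ± 92.97 CPM at +S and 624 ± 9.24 at -S in those shoots, against 443 ± 60.03 and 477 ± 43.2 in Col-0. In the eil1-labelled shoots that sum was 432 ± 77.8 CPM at +S and 557 ± 108 at -S. In the eil3-labelled shoots it was 438 ± 22.6 and 659 ± 140 CPM. The part of these markers in the changes of the transporters was not tested, and in whole shoots and roots fewer cells of a type and less RNA per cell cannot be told apart. Total-count scaling in place of TMM adds about 0.12 to the log2 responses in Col-0 shoots, and 0.074, 0.23 and 0.17 in shoots labelled eil1, eil3 and eil3 eil1, and the 7 calls there held under it. Beside GTR3, the kinase gene AT1G18890 that overlaps it stood at 17.8 ± 4.06 TPM at +S and 24.4 ± 0.497 at -S in Col-0 shoots, above GTR3 itself. It changed there by 0.26 ± 0.098 (adjusted p = 0.047, edgeR), by 0.41 ± 0.099 and 0.38 ± 0.099 in the eil1-labelled and eil3-labelled shoots and by 0.65 ± 0.099 in the eil3 eil1-labelled shoots, the line with the lowest estimate for GTR3. In roots it rose in Col-0 (0.25 ± 0.048, adjusted p = 0.00154) and the eil1-labelled line (0.19 ± 0.048, adjusted p = 0.0364), and its values were 0.15 ± 0.048 and 0.12 ± 0.048 in the lines labelled eil3 and eil3 eil1 (adjusted p = 0.172 and 0.241), positive in all 4 as for GTR3. The part of shared reads in the GTR3 values was not tested. The proton pump gene AT5G62670, which overlaps GTR2, fell in the eil3 eil1-labelled shoots (log2 -1.55 ± 0.11, adjusted p = 3.83e-10, edgeR), where GTR2 rose. It also fell in Col-0, eil1-labelled and eil3-labelled shoots, where GTR2 did not pass the test. Its log2 values there were -0.45 ± 0.11, -0.38 ± 0.11 and -0.68 ± 0.11 (adjusted p = 0.0026, 0.0115 and 6.71e-05, edgeR).

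Against Col-0, the largest differences of GTR1 and GTR2 lay in roots at -S, and that of GTR3 in the eil3 eil1-labelled shoots at -S. GTR1 was lower than in Col-0 in roots labelled eil1 (log2 difference -0.41 ± 0.068, adjusted p = 0.00141, edgeR, with 2.51% of all loci called). The difference was -1.15 ± 0.069 in the eil3-labelled roots (adjusted p = 1.64e-10, 6.65% called) and -1.41 ± 0.070 in the eil3 eil1-labelled roots (adjusted p = 2.64e-12, 12.1% called). At -S the libraries of the 4 genotypes did not overlap for GTR1, in the order Col-0, eil1, eil3 and eil3 eil1 from high to low. GTR2 was higher than in Col-0 in the same 3 groups, by 0.31 ± 0.075 (adjusted p = 0.0258), 0.45 ± 0.075 (adjusted p = 0.000421) and 0.69 ± 0.075 (adjusted p = 1.14e-06). The first of these rested on each of 4 libraries, with adjusted p up to 0.151 when 1 was left out. GTR3 had differences from Col-0 of -0.012, -0.11 and 0.016 (adjusted p = 0.974, 0.573 and 0.946), and its libraries overlapped those of Col-0 in each line.

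At +S no transporter passed the test in roots, where 1.24%, 2.19% and 0.879% of loci were called in the lines labelled eil1, eil3 and eil3 eil1. The nearest was GTR1 in the eil3-labelled roots, at 36.2 ± 3.56 CPM against 43.1 ± 2.45 in Col-0 (log2 -0.26 ± 0.070, adjusted p = 0.0558 with edgeR and 0.0258 with DESeq2). The libraries of those 2 groups did not overlap.

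In shoots at -S, the eil3 eil1-labelled plants differed from Col-0 in all 3 genes, in a comparison that called 53.6% of loci. GTR1 was lower (log2 -0.70 ± 0.11, adjusted p = 2.02e-05, edgeR), GTR3 lower (log2 -0.58 ± 0.16, adjusted p = 0.00415) and GTR2 higher by 0.44 ± 0.12 (adjusted p = 0.00397). None of these groups overlapped. In the eil3-labelled shoots GTR1 was lower than in Col-0 at -S (log2 -0.40 ± 0.11, adjusted p = 0.0165, edgeR, 17.5% of loci called), without overlap of the libraries. It was also lower at +S (log2 -0.37 ± 0.11, adjusted p = 0.0467, edgeR, 7.13% called), where the libraries overlapped. Both of these calls were lost with total-count scaling (adjusted p = 0.105 and 0.0909) and when any 1 of 4 libraries was left out, namely the first or the third of either group. In the eil1-labelled shoots no transporter passed, at +S or at -S, where 1.26% and 0.530% of loci were called. The eil3 eil1-labelled shoots at +S had no transporter call either, against 7.54% of loci. Of 12 such differences, GTR1 was called in 6, GTR2 in 4 and GTR3 in 1, and all but 1 of these calls were at -S.

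**Figure D4:**
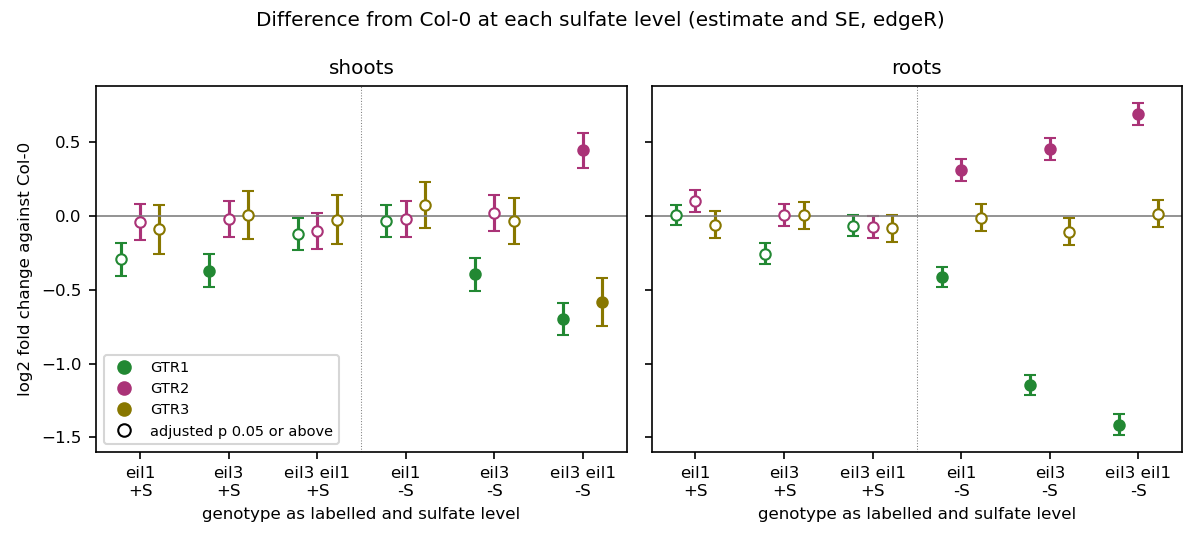
Log2 difference of each mutant, as labelled, from Col-0 at +S and -S for the 3 genes, with SE from edgeR, where filled points passed the adjusted threshold of 0.05. In roots at -S GTR1 lies below 0 and GTR2 above 0 in all 3 mutants, down to -1.41 and up to 0.69 in the eil3 eil1-labelled roots, while GTR3 lies between -0.11 and 0.016.

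The low-sulfate responses themselves differed between genotypes for GTR1 and GTR2. In roots the GTR1 response of the eil3-labelled line was lower than that of Col-0 (difference of log2 responses -0.89 ± 0.098, adjusted p = 6.49e-06, edgeR interaction, 0.943% of all loci called), and so was that of the eil3 eil1-labelled line (-1.35 ± 0.098, adjusted p = 7.32e-09, 3.83% called). For GTR2 the same differences were 0.45 ± 0.11 (adjusted p = 0.0414) and 0.77 ± 0.11 (adjusted p = 7.8e-05). The GTR2 call in the eil3-labelled line was lost in 11 of 12 fits that left out 1 library, with adjusted p up to 0.127. Between the eil1-labelled line and Col-0 the difference was -0.42 ± 0.097 for GTR1 (adjusted p = 0.0632 with edgeR and 0.0112 with DESeq2, 0.383% called with edgeR) and 0.21 ± 0.11 for GTR2 (adjusted p = 0.663).

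For GTR1 the root response of the eil3 eil1-labelled line was also tested against those of the lines labelled eil1 and eil3. In roots the response of the eil3 eil1-labelled line was lower than that of the eil1-labelled line (-0.93 ± 0.098, adjusted p = 9.67e-06, edgeR, 1.63% of loci called) and than that of the eil3-labelled line (-0.46 ± 0.099, adjusted p = 0.0411, 0.378% called). The second call was lost in 10 of 12 fits that left out 1 library, with adjusted p up to 0.122. For GTR2 the double mutant's root response was higher than that of the eil1-labelled line by 0.55 ± 0.11 (adjusted p = 0.00602) and its difference from that of the eil3-labelled line was 0.32 ± 0.11 (adjusted p = 0.274). No difference of root responses passed the test for GTR3.

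In shoots the double mutant's responses differed from those of the other genotypes in 7 of the 9 tests, and the responses of the 2 single lines were not tested against each other. Against Col-0 the difference was -0.58 ± 0.16 for GTR1 (adjusted p = 0.00649, edgeR), 0.54 ± 0.17 for GTR2 (adjusted p = 0.0163) and -0.56 ± 0.23 for GTR3 (adjusted p = 0.0623 with edgeR and 0.0489 with DESeq2), with 36.9% of loci called. The GTR2 call was lost without the first Col-0 +S library (adjusted p = 0.0656) or the third eil3 eil1-labelled -S library (adjusted p = 0.0587). Against the eil1-labelled line (38.7% of loci called) the differences were -0.84 ± 0.16, 0.52 ± 0.17 and -0.72 ± 0.23 for GTR1, GTR2 and GTR3 (adjusted p = 0.000248, 0.0194 and 0.0164). Against the eil3-labelled line (26% called) they were -0.55 ± 0.16, 0.50 ± 0.17 and -0.52 ± 0.23 (adjusted p = 0.0128, 0.0346 and 0.103). Leaving out 1 library ended the GTR2 call against the eil1-labelled line in 3 of 12 fits and against the eil3-labelled line in 9 of 12, and the GTR3 call against the eil1-labelled line in 2 of 12. Neither single line differed from Col-0 in the shoot response of any transporter, with adjusted p of 0.693 or more in the eil1-labelled line (0.0230% of loci called) and 0.939 or more in the eil3-labelled line (1.78% called).

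Between the organs of Col-0, GTR3 was the gene that differed most. With the 12 Col-0 libraries on 1 scale, GTR3 was at 7.45 ± 0.755 CPM in shoots and 84.3 ± 6.35 in roots at +S (log2 3.50 ± 0.099, adjusted p = 3.65e-12, edgeR) and at 12.4 ± 0.976 and 99.4 ± 6.89 at -S (log2 3.00 ± 0.094, adjusted p = 9.53e-12). Calls between organs are the rule, with 76.4% of loci at +S and 76.8% at -S. GTR2 was higher in roots at +S (log2 0.33 ± 0.097, adjusted p = 0.00761) and had a difference of -0.22 ± 0.097 at -S (adjusted p = 0.0557). GTR1 had a difference of -0.17 ± 0.081 at +S (adjusted p = 0.0669) and was higher in roots at -S (log2 0.51 ± 0.079, adjusted p = 6.02e-05). Total-count scaling adds about 0.55 at +S and 0.44 at -S to every organ difference, and turns the sign of GTR1 at +S (0.37) and of GTR2 at -S (0.22). The response itself was larger in roots than in shoots for GTR1 (difference of log2 responses 0.68 ± 0.11, adjusted p = 0.00238) and lower for GTR2 (-0.55 ± 0.14, adjusted p = 0.0208) and GTR3 (-0.50 ± 0.13, adjusted p = 0.0246), where 13.2% of loci were called. The GTR2 call was lost in 3 and the GTR3 call in 5 of 12 fits that left out 1 library.

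Of the 11 other members of the NPF2 subfamily, 6 passed the count filter in shoots and 7 in roots. In Col-0 roots 0 rose and 1 fell (median log2 -0.28, against 0.006 over all loci), and in Col-0 shoots 1 rose and 1 fell (median -0.31, against 0 over all loci). The shares of all loci called were 9.03% in Col-0 roots and 34.9% in Col-0 shoots, and the latter is near the 2 of 6 seen here. NPF2.4, known as a chloride transporter of the root stele, fell by 1.17 ± 0.18 in roots (adjusted p = 0.000113, edgeR) and fell by 4.38 ± 0.77 in shoots (adjusted p = 0.000161). NPF2.13 (NRT1.7), which moves nitrate out of old leaves through the phloem, rose in Col-0 shoots by 1.34 ± 0.20 (adjusted p = 3.09e-05). NPF2.6 and NPF2.3 in shoots had log2 values of -0.80 ± 0.38 (adjusted p = 0.112) and -0.63 ± 0.33 (adjusted p = 0.146). In the eil3 eil1-labelled roots 0 of the 7 were called, where 3.89% of all loci were.

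UMAMIT29, UMAMIT30 and UMAMIT31 are known as glucosinolate exporters. In Col-0 roots UMAMIT29 fell by 2.604 ± 0.24 (adjusted p = 8.63e-08, edgeR), UMAMIT31 rose by 0.38 ± 0.091 (adjusted p = 0.00811) and UMAMIT30 had a log2 value of -0.083 ± 0.066 (adjusted p = 0.521). In Col-0 shoots UMAMIT29 fell by 0.89 ± 0.30 (adjusted p = 0.0259) and UMAMIT30 rose by 0.61 ± 0.10 (adjusted p = 9.7e-05). UMAMIT31 was not called there (log2 0.34). The shares of all loci called were 9.03% in Col-0 roots and 34.9% in Col-0 shoots. UMAMIT29 also fell in the roots of the 3 mutants, with log2 values of -1.37 ± 0.23, -1.51 ± 0.23 and -1.36 ± 0.22 in the lines labelled eil1, eil3 and eil3 eil1 (adjusted p = 0.000836, 0.000552 and 0.000688). Of all loci, 1.92%, 1.06% and 3.89% were called in these root responses. In the eil3 eil1-labelled shoots, where GTR2 rose, UMAMIT29 rose by 0.99 ± 0.28 (adjusted p = 0.00391), in a comparison that called 60.8% of all loci.

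Most enzymes of aliphatic glucosinolate synthesis fell in both organs of Col-0. Of 23 aliphatic synthesis genes tested, 21 fell and 1 rose in Col-0 roots (median log2 -1.68, 9.03% of all loci called) and 19 fell and 3 rose in Col-0 shoots (median -2.30, 34.9% called). In roots BCAT4, the first enzyme of methionine chain elongation, fell by 4.37 ± 0.16 (adjusted p = 1.08e-14, edgeR), MAM1, the chain-elongating synthase, fell by 4.01 ± 0.13 (adjusted p = 3.09e-15) and CYP83A1, of the core pathway, fell by 2.22 ± 0.097 (adjusted p = 2.12e-13), though reads can be shared between MAM1 and its near copy MAM3. In the eil3 eil1-labelled roots 14 of the 23 fell and 0 rose (median -0.46, 3.89% of all loci called), with BCAT4 at -0.84 ± 0.14. Of the 13 indolic synthesis genes, 6 fell and 0 rose in Col-0 roots (median -0.51, 9.03% of all loci called) and 1 fell and 5 rose in Col-0 shoots (median 0.27, 34.9% called). In the test of the root response against the shoot response, 8 of the 13 were lower and 0 higher (median -1.06, 13.2% of all loci called). CYP79B3, which converts tryptophan, fell by 3.37 ± 0.14 in roots (adjusted p = 1.56e-13), while in shoots GSTF10 rose by 1.06 ± 0.14 (adjusted p = 5.28e-06) and UGT74B1, the glucosyltransferase of the core pathway, by 0.61 ± 0.10 (adjusted p = 0.000117).

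Of the changes given here for Col-0 roots, those of BGLU28, from the breakdown genes, and SDI1, from the regulators, were the largest. As lists, the regulators had a median log2 of 0.026 in Col-0 roots and -0.10 in Col-0 shoots, and the breakdown genes 1.99 and -0.20. Of the regulators 3 of 6 rose and 1 fell in Col-0 roots, where 9.03% of all loci were called. In Col-0 shoots 2 of 8 rose and 2 fell, where 34.9% of all loci were called. SDI1, a repressor of aliphatic synthesis induced by sulfur deficiency, rose by 6.59 ± 0.23 in roots (adjusted p = 4.97e-15, edgeR) and by 2.33 ± 0.19 in the eil3 eil1-labelled roots (adjusted p = 1.24e-07). MYB28, an activator of aliphatic synthesis, rose by 0.49 ± 0.10 in Col-0 roots (adjusted p = 0.00307) and fell by 0.63 ± 0.10 in the eil3 eil1-labelled roots (adjusted p = 0.000717). Of the breakdown genes, 3 of 6 rose in Col-0 roots and 2 of 7 rose and 2 fell in Col-0 shoots, against the same shares of all loci. BGLU28, a beta-glucosidase known for glucosinolate breakdown under low sulfur, rose by 9.92 ± 0.65 in Col-0 roots (adjusted p = 2.27e-10) and by 2.77 ± 0.60 in the eil3 eil1-labelled roots (adjusted p = 0.00799). The myrosinase TGG2 fell by 2.65 ± 0.26 in Col-0 shoots (adjusted p = 2.15e-07).

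**Figure D5:**
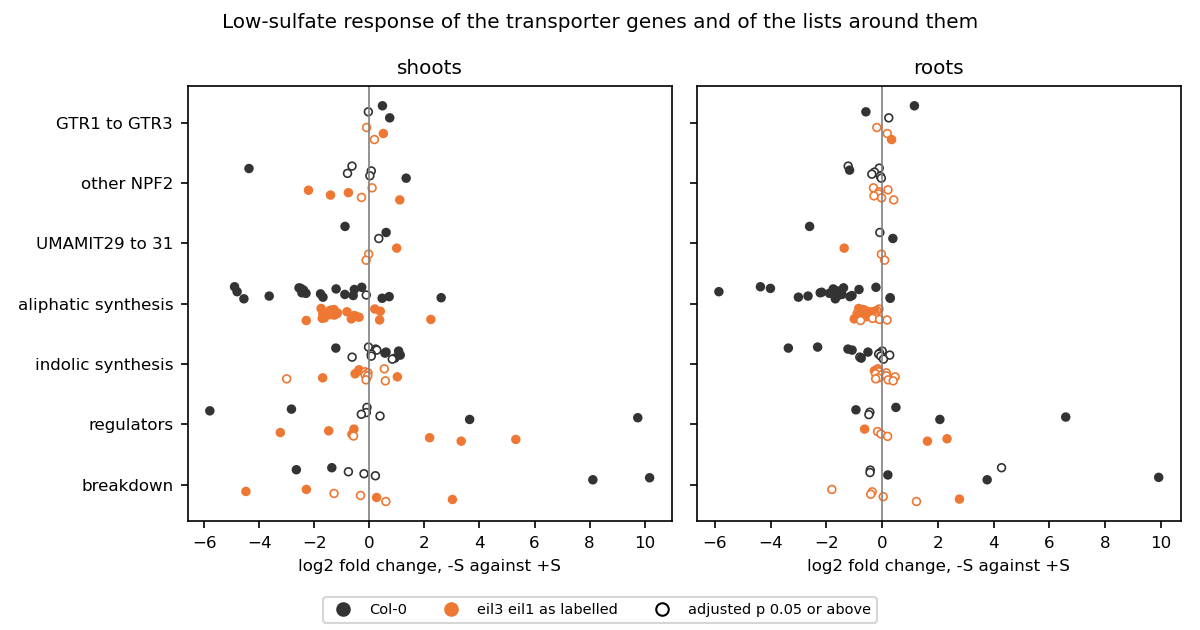
Log2 fold change from +S to -S of the transporter genes and of the loci in 6 lists around them, in Col-0 and in the eil3 eil1-labelled plants, where each point is 1 locus and filled points passed the adjusted threshold of 0.05. In Col-0 roots, where 9.03% of all loci were called, 21 of 23 aliphatic synthesis genes lie below 0 as calls, while GTR1 lies at 1.16 and GTR2 at -0.58.

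The loci whose log2 CPM followed each transporter most closely over the 24 libraries of an organ were described by Pearson's r, with Spearman's rho beside it. These points share the groups and the sequencing, so the values describe the pattern and are no test. For GTR1 in roots they were AT1G75290 (r = 0.959, rho = 0.7), AT3G05400 (r = 0.959, rho = 0.86), AT1G75280 (r = 0.956, rho = 0.648) and ICS2 (r = 0.954, rho = 0.803). For GTR2 in roots they were AT2G25450 (r = 0.933, rho = 0.767), ATR2 (r = 0.92, rho = 0.813), IAR3 (r = 0.916, rho = 0.81) and AT1G23390 (r = 0.913, rho = 0.815). For GTR3 in roots they were LAX1 (r = 0.882, rho = 0.87), PHO2 (r = 0.873, rho = 0.865), PDS1 (r = 0.873, rho = 0.876) and MES9 (r = 0.843, rho = 0.826). The transporters themselves were left out of these rankings. In shoots GTR1 was followed most closely by RBOHD (r = 0.928, rho = 0.936), ACD5 (r = 0.927, rho = 0.918), AT2G43850 (r = 0.915, rho = 0.841) and CAT3 (r = 0.911, rho = 0.897). GTR2 there had lower values, with DGL1 (r = 0.843, rho = 0.69), AAP3 (r = 0.836, rho = 0.721), AT5G25757 (r = 0.836, rho = 0.747) and DMS11 (r = 0.829, rho = 0.663). GTR3 in shoots had AHL20 (r = 0.935, rho = 0.84), CYP72A14 (r = 0.908, rho = 0.853), AT1G08230 (r = 0.906, rho = 0.852) and HB-1 (r = 0.903, rho = 0.873). Among the transporters, GTR1 and GTR2 ran against each other in roots (r = -0.849, rho = -0.601) and had values near 0 in shoots (r = -0.081, rho = -0.002). GTR1 and GTR3 had r = 0.784, rho = 0.678 in shoots and r = 0.471, rho = 0.279 in roots.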

How the data were processed

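Estimated counts for 48 libraries were deposited as 1 table, with 33602 targets and 1 effective length per target for all libraries. Per the submitters' processing notes, reads were trimmed with Trimmomatic 0.36, checked with FastQC and quantified with kallisto 0.43.1 on TAIR10. The strand setting is not given in the sources used here. The deposited estimated counts (7.8% not whole) were rounded. The 48 deposited TPM columns were not used, although the design had named them: TPM was computed from the rounded counts and the deposited effective lengths. Groups came from the labels. Root columns were tied to sample titles, and shoot columns to groups only.

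The 24 libraries of an organ entered 1 fit of 8 groups with edgeR 4.0.16 in R 4.3.3 (TMM, filterByExpr, quasi-likelihood F test, Benjamini-Hochberg over 21697 loci in shoots and 21954 in roots, threshold 0.05). Organ differences came from the 12 Col-0 libraries (22301 loci). The SE is the size of the log2 fold change over the root of F. The common biological coefficient of variation was 0.129 in shoots, 0.101 in roots and 0.118 in Col-0. On simulated counts 82.0% of changes of 1.5-fold were recovered for the shoot Col-0 response (21331 loci) and 94.0% for the root one (21712 loci), and 100.0% of changes of 2-fold or more in both. The simulated spread was the same for all loci and both organs, near the root value and below the shoot value. Only loci above a minimum level were changed. The recovery at the spread of the shoot libraries, or for shoot GTR3 by itself, was therefore not tested.

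Loci that could be named were the 3 members, EIL1 and EIL3, up to 4 loci per list with the smallest p in the Col-0 response of an organ, and the 4 loci of highest r per member and organ (log2 CPM, prior count 2, members excepted). Only a part of the list loci so chosen is given in the text, and the choice among them followed no stated rule. The members and lists were chosen with earlier results of these data known. Sequences and gene models are from RefSeq TAIR10.1, where 32835 targets matched a locus. GTR3 had 125 to 453 counts per shoot library, and GTR1 and GTR2 had 535 or more in every library. Alternatives were DESeq2 1.42.0, limma-trend 3.58.1 on log2(TPM + 1), other scalings, no filter, other sets of libraries, a replicate block and each library left out.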

Additional observations from a re-analysis of the deposited data

Results flagged for a closer look

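Differences between low-sulfate responses that passed the edgeR interaction test are listed here as values, and their causes were not tested. In roots the GTR1 response differed from that of Col-0 by -0.89 in the eil3-labelled line (adjusted p = 6.49e-06) and by -1.35 in the eil3 eil1-labelled line (adjusted p = 7.32e-09). The GTR2 response differed by 0.45 (adjusted p = 0.0414) and 0.77 (adjusted p = 7.8e-05) in the same lines. The call at 0.45 was lost in 11 of 12 fits that left out 1 library. Of all loci, 0.943% and 3.83% were called in the tests of these lines. Between the double mutant and the eil1-labelled line the root values were -0.93 for GTR1 (adjusted p = 9.67e-06) and 0.55 for GTR2 (adjusted p = 0.00602), and between it and the eil3-labelled line -0.46 for GTR1 (adjusted p = 0.0411). The call at -0.46 was lost in 10 of 12 fits that left out 1 library. Of all loci, 1.63% were called against the eil1-labelled line and 0.378% against the eil3-labelled line.

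In shoots the GTR1 response of the double mutant differed by -0.58 from Col-0 (adjusted p = 0.00649), by -0.84 from the eil1-labelled line (adjusted p = 0.000248) and by -0.55 from the eil3-labelled line (adjusted p = 0.0128). For GTR2 these differences were 0.54 (adjusted p = 0.0163), 0.52 (adjusted p = 0.0194) and 0.50 (adjusted p = 0.0346). For GTR3 the difference from the eil1-labelled line was -0.72 (adjusted p = 0.0164), a call lost in 2 of 12 such fits. Between the organs of Col-0, the root response minus the shoot response was 0.68 for GTR1 (adjusted p = 0.00238), -0.55 for GTR2 (adjusted p = 0.0208) and -0.50 for GTR3 (adjusted p = 0.0246). The GTR2 call was lost in 3 and the GTR3 call in 5 of 12 such fits, and 13.2% of all loci were called.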

How the results depend on the processing

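Of 44 calls, 44 held with DESeq2, 43 with RLE size factors, 43 without a count filter, 39 with total-count scaling and 35 with limma-trend. GTR1 and GTR2 in Col-0 roots kept their calls in every alternative tried. The number of loci called moved by over 1.5 times in 13 comparisons with DESeq2, 14 with the compared groups only, 7 with limma-trend, 4 with total-count scaling and 20 when 1 library was left out. By Spearman's rho, 3 of the 4 nearest loci of GTR1 in shoots and of GTR3 in roots were among the 4 nearest again, and 0 of 4 in the other 4 cases. Per length of annotated exons the leading orders held in 20 root and 22 shoot libraries, and GTR1 was above GTR2 in 4 root libraries in place of 3. In roots 20 of 84 same-numbered pairs of libraries correlated above 0.1 (median 0.03), and 15 of 24 libraries correlated best with their own number, a hint from the data and not the design. A replicate block changed no member's call in roots (18 calls held), and with it the GTR1 response of Col-0 roots was 1.16. No paired analysis was possible in shoots because the columns are not tied to sample numbers. GTR3 had the fewest counts, in shoots, and what that adds to its error was not separated from the spread between libraries. The cause of each change below was not tested.

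Loci called were 7516 against 12589 with limma-trend and 4947 with the compared groups for the response of eil3-labelled shoots and 273 against 166 with total-count scaling, 689 with DESeq2, 124 with limma-trend and 14 with the compared groups for eil1-labelled shoots against Col-0 at +S. They were 115 against 76 with total-count scaling, 542 with DESeq2 and 57 with limma-trend for eil1-labelled shoots against Col-0 at -S and 1548 against 842 with limma-trend and 21 with the compared groups for eil3-labelled shoots against Col-0 at +S. Counts were 1636 against 516 with the compared groups for eil3 eil1-labelled shoots against Col-0 at +S and 5 against 10 with RLE, 9 with total-count scaling, 20 with no filter, 112 with DESeq2, 17 with limma-trend and 3 with the compared groups for the response of eil1-labelled against Col-0 shoots. In others they were 386 against 603 with total-count scaling, 807 with DESeq2, 704 with limma-trend and 143 with the compared groups for the response of eil3-labelled against Col-0 shoots and 422 against 262 with the compared groups for the response of eil1-labelled roots. They were 233 against 398 with DESeq2 and 102 with the compared groups for the response of eil3-labelled roots and 272 against 546 with DESeq2 and 135 with the compared groups for eil1-labelled roots against Col-0 at +S. Counts were 551 against 856 with DESeq2 and 277 with the compared groups for eil1-labelled roots against Col-0 at -S and 480 against 817 with DESeq2 and 250 with the compared groups for eil3-labelled roots against Col-0 at +S. In others they were 193 against 451 with DESeq2, 296 with limma-trend, 349 with the replicate block and 325 with the compared groups for eil3 eil1-labelled roots against Col-0 at +S and 84 against 191 with DESeq2 and 41 with the compared groups for the response of eil1-labelled against Col-0 roots. They were 207 against 393 with DESeq2 for the response of eil3-labelled against Col-0 roots and 358 against 598 with DESeq2 for the response of eil3 eil1-labelled against eil1-labelled roots. Counts were 83 against 236 with DESeq2 and 50 with the compared groups for the response of eil3 eil1-labelled against eil3-labelled roots.

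The call was lost with total-count scaling at -0.35 for GTR1 in eil3-labelled shoots against Col-0 at +S, -0.27 for GTR1 in eil3-labelled shoots against Col-0 at -S, 0.45 for the GTR2 response of eil3 eil1-labelled against eil3-labelled shoots and 0.32 for the GTR3 response of eil3 eil1-labelled roots. Likewise it was 0.42 for the GTR2 response of eil3-labelled against Col-0 roots. The sign turned with total-count scaling at 0.083 for the GTR2 response of Col-0 shoots, 0.057 for the GTR2 response of eil1-labelled shoots, 0.069 for the GTR1 response of eil3 eil1-labelled shoots and 0.016 for GTR2 in eil1-labelled shoots against Col-0 at +S. Likewise it was 0.091 for GTR3 in eil3-labelled shoots against Col-0 at -S, 0.051 for GTR3 in eil3 eil1-labelled shoots against Col-0 at +S, -0.026 for the GTR2 response of eil1-labelled against Col-0 shoots and 0.077 for the GTR1 response of eil3-labelled against Col-0 shoots. Likewise it was 0.059 for the GTR3 response of eil3-labelled against Col-0 shoots, 0.37 for GTR1 in Col-0 roots against shoots at +S and 0.22 for GTR2 in Col-0 roots against shoots at -S. The call was lost with limma-trend on log2(TPM + 1) at -0.35 for GTR1 in eil3-labelled shoots against Col-0 at +S, -0.23 for GTR1 in eil3-labelled shoots against Col-0 at -S, -0.36 for GTR3 in eil3 eil1-labelled shoots against Col-0 at -S and -0.48 for the GTR3 response of eil3 eil1-labelled against eil1-labelled shoots. Likewise it was 0.41 for the GTR2 response of eil3 eil1-labelled against eil3-labelled shoots, 0.31 for the GTR3 response of eil3 eil1-labelled roots, 0.29 for GTR2 in eil1-labelled roots against Col-0 at -S and 0.37 for the GTR2 response of eil3-labelled against Col-0 roots. Likewise it was -0.47 for the GTR1 response of eil3 eil1-labelled against eil3-labelled roots. A call was gained with limma-trend on log2(TPM + 1) at 0.34 for the GTR2 response of eil3-labelled shoots and 0.38 for the GTR3 response of eil3 eil1-labelled shoots. The sign turned with limma-trend on log2(TPM + 1) at 0.17 for the GTR2 response of Col-0 shoots, 0.12 for the GTR2 response of eil1-labelled shoots, 0.17 for the GTR1 response of eil3 eil1-labelled shoots and 0.040 for GTR2 in eil1-labelled shoots against Col-0 at +S. Likewise it was 0.0046 for GTR2 in eil3-labelled shoots against Col-0 at +S, 0.11 for GTR3 in eil3-labelled shoots against Col-0 at -S, 0.044 for GTR3 in eil3 eil1-labelled shoots against Col-0 at +S and -0.046 for the GTR2 response of eil1-labelled against Col-0 shoots. Likewise it was 0.12 for the GTR1 response of eil3-labelled against Col-0 shoots, 0.099 for the GTR3 response of eil3-labelled against Col-0 shoots, 0.012 for GTR1 in eil3 eil1-labelled roots against Col-0 at +S and -0.011 for GTR3 in eil3 eil1-labelled roots against Col-0 at -S. Likewise it was -0.013 for the GTR3 response of eil1-labelled against Col-0 roots, -0.0039 for the GTR3 response of eil3 eil1-labelled against Col-0 roots, 0.54 for GTR1 in Col-0 roots against shoots at +S and 0.39 for GTR2 in Col-0 roots against shoots at -S. A call was gained with DESeq2 at -0.58 for the GTR3 response of eil3 eil1-labelled against Col-0 shoots, 0.27 for the GTR1 response of eil3-labelled roots, -0.26 for GTR1 in eil3-labelled roots against Col-0 at +S and -0.41 for the GTR1 response of eil1-labelled against Col-0 roots. Likewise it was -0.23 for GTR1 in Col-0 roots against shoots at +S and -0.22 for GTR2 in Col-0 roots against shoots at -S. The sign turned with DESeq2 at -0.0092 for the GTR2 response of eil3-labelled shoots. The call was lost with RLE size factors at -0.37 for GTR1 in eil3-labelled shoots against Col-0 at +S. A call was gained with RLE size factors at -0.23 for GTR1 in Col-0 roots against shoots at +S and -0.22 for GTR2 in Col-0 roots against shoots at -S. The sign turned with RLE size factors at -0.0096 for the GTR2 response of eil3-labelled shoots. The call was lost with no count filter at -0.37 for GTR1 in eil3-labelled shoots against Col-0 at +S. The call was lost with a fit of the compared groups only at 0.44 for the GTR1 response of eil3-labelled shoots, -0.37 for GTR1 in eil3-labelled shoots against Col-0 at +S, 0.32 for GTR2 in eil1-labelled roots against Col-0 at -S and -0.46 for the GTR1 response of eil3 eil1-labelled against eil3-labelled roots. A call was gained with a fit of the compared groups only at -0.56 for the GTR3 response of eil3 eil1-labelled against Col-0 shoots. The sign turned with a fit of the compared groups only at -0.0064 for the GTR2 response of eil3-labelled shoots. The call was lost with all 48 libraries in 1 fit at -0.50 for the GTR3 response of Col-0 roots against shoots.

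Leaving out 1 library gave ranges of -0.019 to 0.057 for GTR1 in eil1-labelled roots against Col-0 at +S, -0.097 to 0.0073 for GTR1 in eil1-labelled shoots against Col-0 at -S and -0.34 to -0.21 for GTR1 in eil3-labelled roots against Col-0 at +S. Others ran -0.54 to -0.23 for GTR1 in eil3-labelled shoots against Col-0 at +S, -0.44 to -0.36 for GTR1 in eil3-labelled shoots against Col-0 at -S and 0.20 to 0.35 for the GTR1 response of eil3-labelled roots. Further ranges were -0.47 to -0.39 for the GTR1 response of eil1-labelled against Col-0 roots, -0.54 to -0.39 for the GTR1 response of eil3 eil1-labelled against eil3-labelled roots and -0.16 to 0.15 for the GTR1 response of eil3-labelled against Col-0 shoots. Values also ran -0.23 to -0.12 for GTR1 in Col-0 roots against shoots at +S, 0.27 to 0.36 for GTR2 in eil1-labelled roots against Col-0 at -S and -0.18 to 0.11 for GTR2 in eil1-labelled shoots against Col-0 at +S. Others ran -0.089 to 0.029 for GTR2 in eil1-labelled shoots against Col-0 at -S, -0.18 to 0.046 for GTR2 in eil3 eil1-labelled shoots against Col-0 at +S and -0.064 to 0.054 for GTR2 in eil3-labelled roots against Col-0 at +S. Further ranges were -0.10 to 0.13 for GTR2 in eil3-labelled shoots against Col-0 at +S, -0.015 to 0.068 for GTR2 in eil3-labelled shoots against Col-0 at -S and -0.42 to -0.32 for the GTR2 response of eil1-labelled roots. Values also ran -0.12 to 0.11 for the GTR2 response of Col-0 shoots, -0.12 to 0.13 for the GTR2 response of eil1-labelled shoots and -0.079 to 0.052 for the GTR2 response of eil3-labelled shoots. Others ran -0.13 to 0.16 for the GTR2 response of eil1-labelled against Col-0 shoots, 0.40 to 0.63 for the GTR2 response of eil3 eil1-labelled against Col-0 shoots and 0.38 to 0.63 for the GTR2 response of eil3 eil1-labelled against eil1-labelled shoots. Further ranges were 0.39 to 0.59 for the GTR2 response of eil3 eil1-labelled against eil3-labelled shoots, 0.40 to 0.52 for the GTR2 response of eil3-labelled against Col-0 roots and -0.11 to 0.12 for the GTR2 response of eil3-labelled against Col-0 shoots. Values also ran -0.26 to -0.17 for GTR2 in Col-0 roots against shoots at -S, -0.69 to -0.47 for the GTR2 response of Col-0 roots against shoots and -0.12 to 0.0066 for GTR3 in eil1-labelled roots against Col-0 at +S. Others ran -0.063 to 0.045 for GTR3 in eil1-labelled roots against Col-0 at -S, -0.20 to 0.031 for GTR3 in eil1-labelled shoots against Col-0 at +S and -0.057 to 0.19 for GTR3 in eil1-labelled shoots against Col-0 at -S. Further ranges were -0.016 to 0.071 for GTR3 in eil3 eil1-labelled roots against Col-0 at -S, -0.11 to 0.094 for GTR3 in eil3 eil1-labelled shoots against Col-0 at +S and -0.086 to 0.071 for GTR3 in eil3-labelled roots against Col-0 at +S. Values also ran -0.18 to 0.0046 for GTR3 in eil3-labelled roots against Col-0 at -S, -0.14 to 0.15 for GTR3 in eil3-labelled shoots against Col-0 at +S and -0.12 to 0.082 for GTR3 in eil3-labelled shoots against Col-0 at -S. Others ran 0.29 to 0.36 for the GTR3 response of eil3 eil1-labelled roots, -0.016 to 0.11 for the GTR3 response of eil1-labelled against Col-0 roots and -0.68 to -0.47 for the GTR3 response of eil3 eil1-labelled against Col-0 shoots. Further ranges were -0.0091 to 0.11 for the GTR3 response of eil3 eil1-labelled against eil1-labelled roots, -0.84 to -0.59 for the GTR3 response of eil3 eil1-labelled against eil1-labelled shoots and -0.18 to 0.10 for the GTR3 response of eil3-labelled against Col-0 shoots. Values also ran -0.56 to -0.42 for the GTR3 response of Col-0 roots against shoots.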
